A study of Mus musculus with 64 samples.

Results

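The genes of potassium channel subunits described here are every row of the table whose symbol starts with Kcn, together with Abcc8 and Abcc9, the sulfonylurea receptors of KATP channels. They numbered 95 of 30285 rows. RNA sequencing of 64 male C57BL6 mouse hearts gave 1 FPKM value (fragments scaled by transcript length and library total) per gene and heart. The mice were 3 to 4 months old at surgery. The KO mice had lost Ndufs4, a subunit of mitochondrial complex I, in heart muscle cells only, since the Cre that cut the floxed gene was driven by the αMHC promoter. TAC (transverse aortic constriction) was a narrowing of the aorta that raised the pressure load, and sham mice had the surgery without it. The 4 conditions were wild type sham (WTSH), knock out sham (KOSH), wild type TAC (WTTAC) and knock out TAC (KOTAC). Each was sampled at weeks 1, 2, 4 and 8 after surgery, with 4 hearts in each of the 16 groups. The sources used here do not say whether the WT mice carried Cre or floxed alleles.

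Potassium channels let potassium leave the cell and so end the cardiac action potential and hold the resting potential of the heart muscle cell. Most are built from pore-forming subunits and accessory subunits that set where and how fast the pore opens. The mouse ventricle repolarizes mainly through the fast transient outward current, carried by Kv4 pores with the accessory protein KChIP2, and through slower delayed currents such as that of Kv1.5. Inward rectifiers of the Kir2 family hold the resting potential, Kir3 channels open when acetylcholine reaches its receptor, and KATP channels open when ATP is low.

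Ndufs4 lay between 20.31 and 43.77 FPKM in the KO hearts and between 59.03 and 187.6 in the WT hearts, without overlap. Each library had 11689 to 13101 genes at an FPKM of 1 or more. Markers of ventricular muscle cells (10 genes) summed to between 30850 and 53140 FPKM. Both TAC groups of week 2 held libraries that stood apart: in the WTTAC and the KOTAC replicates 3 and 4, log2(FPKM + 1) relative to the mean over all hearts changed by -0.119 to -0.099 for each doubling of gene length. The other 60 libraries ranged from -0.048 to 0.060. Named calls that rest on these 4 libraries are given with and without them, while ratios within a heart are given with them only. Another 8 libraries, from WTSH, KOSH and WTTAC hearts, had a summed FPKM above 100 for 6 markers of atrial muscle, against medians of 19.6 to 25.9 in the 4 conditions. The labels give cardiac tissue and no chamber. In such bulk tissue, fewer cells of a type and less RNA per cell cannot be told apart.

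A minimum of 1 FPKM in 4 or more libraries left 32 of the 95 members to test. Of the 63 others, 4 were listed at 0 in every heart, 21 never reached 0.1 FPKM, 33 had a highest value between 0.1 and 1, and 5 reached 1 FPKM in 1 to 3 libraries. The highest value among the 63 was 1.55 FPKM. Depth is unknown from FPKM, so a low value does not show that a gene was silent. Kcna4, the Kv1.4 pore of the slow transient outward current, was among them, with 0.137, 0.329 and 0.875 FPKM as the lowest, median and highest WTSH heart. None of the 4 Kv3 genes passed, and 3 of 14 two-pore genes did.

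In WTSH hearts, 4 members stood above the others and together made up 57.3% of the summed FPKM of the family. Kcnip2, which encodes KChIP2, had a median of 76.7 FPKM. Kcnk3, which encodes the two-pore leak channel TASK1, had 68.0. Abcc9, which encodes the receptor SUR2, had 54.9. Kcng2, a silent subunit that joins Kv2 pores, had 44.8, and its gene model is only 705 bases long. The lowest Kcng2 heart, at 38.6 FPKM, was above the highest heart of the next member, Kcnh2, at 28.6. Every other pair of neighbours in the order had overlapping ranges. Below Kcnh2, the ERG pore of the rapid delayed rectifier (24.6), came Kcnj3 (18.7), Kcnq1 (17.6), Kcnj5 (16.3) and Kcnj8 (15.4). In all, 11 members had a median of at least 10 FPKM and 8 had a median under 1.

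**Figure D1:**
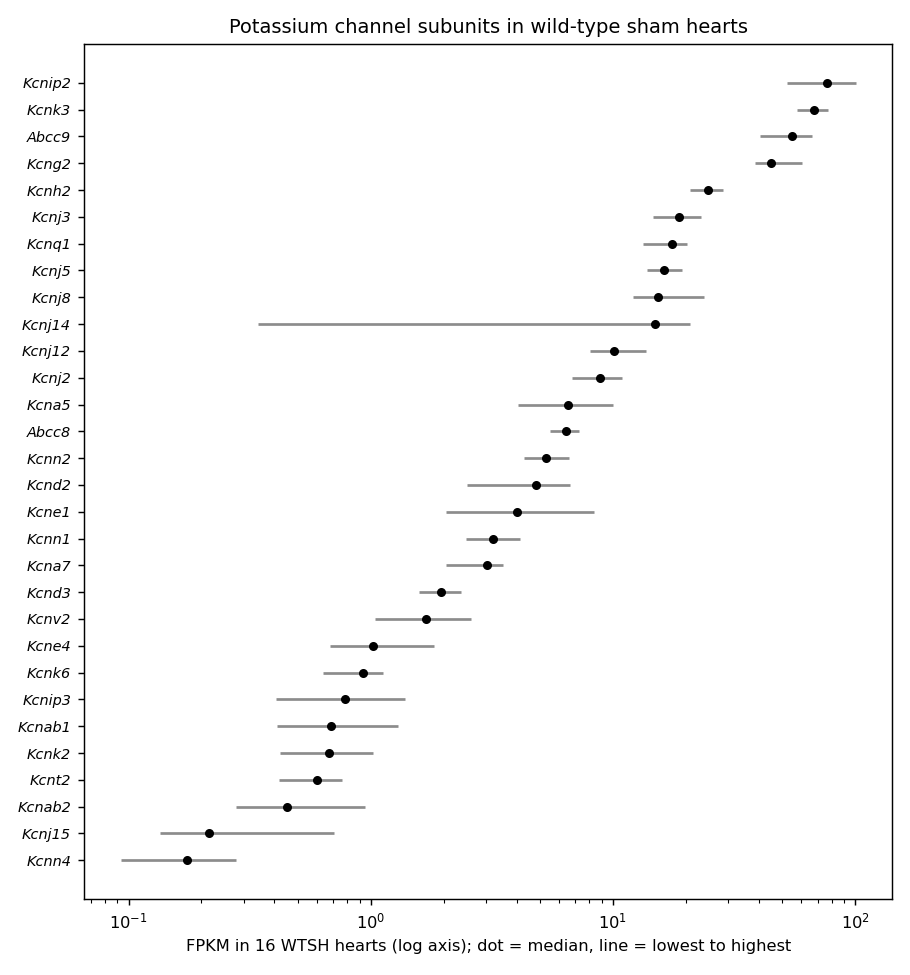
FPKM of 30 tested potassium channel subunits in 16 WTSH hearts, on a log axis, with the median as a dot and the lowest to highest heart as a line. Kcnip2, Kcnk3, Abcc9 and Kcng2 sit above the rest, and the line of Kcnj14 reaches down to 0.341 FPKM.

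The first question was how TAC changed the family in each genotype. Comparisons were made on log2(FPKM + 1), a scale that understates the change of low genes, and the differences at the 4 weeks were averaged. A gene is called changed when limma gave an adjusted p under 0.05 over all 13653 genes tested. In WTTAC vs. WTSH, 23 of 32 members were called, 8 higher and 15 lower (71.9%), against 59.9% of all genes tested. Of all genes, 48.2% were called higher and 11.7% lower, against 25.0% and 46.9% of the members. In KOTAC vs. KOSH, which shares no heart with the former, 25 members were called, 9 higher and 16 lower (78.1%), against 62.0% of all genes (48.0% higher and 14.0% lower). The median log2 change was -0.10 for the members and 0.14 for all genes in the WT hearts, and -0.13 and 0.13 in the KO hearts. On the deposited scaling no member was called in opposite directions: 15 were lower in both genotypes and 7 higher in both. On that scaling 6 were called in neither, among them Kcna5, Kcnab1, Kcng2, Kcnj8 and Kcnq1.

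The direction of weak changes depended on the scaling. Median-of-ratios scaling moved the median of all genes by more than 0.1, to -0.00244 in the WT and -0.00249 in the KO comparison. It gave 6 higher and 17 lower members in the WT and 8 higher and 19 lower members in the KO comparison. Of all genes tested, 3825 were then called higher and 3836 lower in the WT, and 4035 and 4083 in the KO comparison. Quantile normalization gave 5 and 19 in the WT and 6 and 19 in the KO comparison. Of all genes it called 3454 higher and 4283 lower in the WT, and 3646 and 4580 in the KO comparison. Under quantile normalization Kcnip3 was called lower in WTTAC vs. WTSH (-0.147, adjusted p = 0.014). The 15 members lower in both genotypes and Kcne4, Kcnj15, Kcnk2, Kcnk6 and Kcnt2 kept their call and direction in both comparisons under both scalings.

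Below the filter, 59 members could be tested when no filter was set. For WTTAC vs. WTSH this gave 14 rises and 6 falls, against 15.9% of all 10911 genes below the filter in the same fit (13.0% higher and 2.91% lower) and 38.9% of all genes. For KOTAC vs. KOSH it gave 8 and 8, against 15.5% (11.8% and 3.74%) and 39.8%. The largest of these changes were 0.231 and 0.267 on the log2 scale, and in no library did any of these members exceed 1.55 FPKM.

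**Figure D2:**
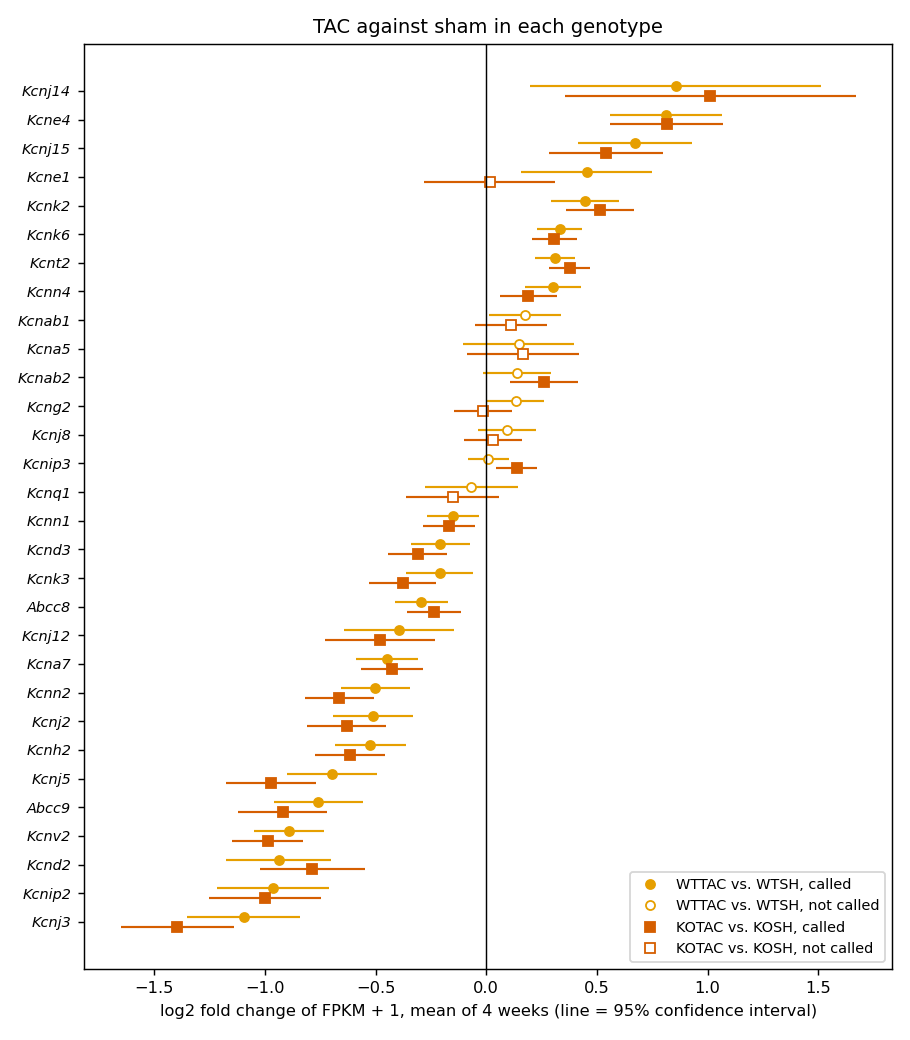
Log2 fold change of FPKM + 1 of 30 members, TAC against sham, as the mean of 4 weeks, with 95% confidence intervals. Circles are WTTAC vs. WTSH and squares KOTAC vs. KOSH, filled where the adjusted p is under 0.05. The falls run from Kcnj3 at the bottom to Kcnn1, and both genotypes lie on the same side of 0 for each member drawn but Kcng2.

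RNA of the fast transient outward channel fell in both of its main parts. Kcnip2 was 52.2, 76.7 and 101 FPKM in WTSH hearts (lowest, median, highest), 19.0, 39.6 and 63.6 in WTTAC, 39.6, 80.1 and 96.0 in KOSH, and 18.5, 39.1 and 60.5 in KOTAC. All 16 TAC hearts of each genotype were below their sham median, and 12 WTTAC and 8 KOTAC hearts were below every sham heart of their genotype. Kcnip2 fell by 0.96 in WTTAC (SE 0.13, adjusted p = 7.95e-09) and by 1.00 in KOTAC (SE 0.13, adjusted p = 2.23e-09). Kcnd2, which encodes the Kv4.2 pore, was 2.49, 4.83 and 6.63 FPKM in WTSH, 0.985, 1.96 and 3.72 in WTTAC, 2.74, 3.53 and 5.07 in KOSH, and 0.617, 1.83 and 2.45 in KOTAC. The KOTAC and KOSH hearts did not overlap, and 10 of 16 WTTAC hearts were below every WTSH heart. Kcnd2 fell by 0.94 (SE 0.12, adjusted p = 3.06e-09) and by 0.79 (SE 0.12, adjusted p = 1.26e-07).

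The other Kv4 pore moved less. Kcnd3, which encodes Kv4.3, had medians of 1.95 FPKM in WTSH, 1.56 in WTTAC, 1.82 in KOSH and 1.48 in KOTAC. It fell by 0.21 (SE 0.07) and by 0.31 (SE 0.07), with 8 and 7 TAC hearts below every sham heart. The ratio of Kcnd2 to Kcnd3 FPKM within a heart had medians of 2.54 in WTSH, 1.31 in WTTAC, 1.75 in KOSH and 1.35 in KOTAC, with overlapping ranges. The ratio of Kcnip2 to Kcnd2 had medians of 15.9, 21.3, 21.6 and 22.5 in the same order, and no TAC heart lay below the lowest sham heart of its genotype. Exons of Kcnd3 overlap another gene on the other strand, 1700095B22Rik, and without strand their reads cannot be told apart. Kcnip3, a KChIP that in neurons also acts as a transcriptional repressor, was called higher in KOTAC (0.14, SE 0.05) and not in WTTAC (0.01, SE 0.05), and its sign in the KO comparison turned under quantile normalization, to -0.005209. Without a filter, Kcna4 had changes of 0.147 (adjusted p = 0.0777) and 0.0953 (adjusted p = 0.286).

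The sequence upstream of 4 members is shown because the first 3 fell together and the last rose. These are the 250 bases before the RefSeq start (GRCm38.p6), 5′ to 3′ on the strand of the gene. Kcnj3 is at chr2:55435720-55435969 on the plus strand, Kcnip2 at chr19:45816064-45816313 on the minus strand, Kcnd2 at chr6:21215096-21215345 on the plus strand and Kcne4 at chr1:78816661-78816910 on the plus strand. Capitals mark GGGCGG (the GC box), CATTCC (the M-CAT element), TATAAA (the TATA box) or CACGTG (an E-box), searched on both strands.
Kcnj3: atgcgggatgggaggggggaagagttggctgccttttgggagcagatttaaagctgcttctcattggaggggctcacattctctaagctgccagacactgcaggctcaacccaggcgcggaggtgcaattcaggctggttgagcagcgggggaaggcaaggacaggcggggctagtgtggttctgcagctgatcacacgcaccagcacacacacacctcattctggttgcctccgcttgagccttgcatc
Kcnip2: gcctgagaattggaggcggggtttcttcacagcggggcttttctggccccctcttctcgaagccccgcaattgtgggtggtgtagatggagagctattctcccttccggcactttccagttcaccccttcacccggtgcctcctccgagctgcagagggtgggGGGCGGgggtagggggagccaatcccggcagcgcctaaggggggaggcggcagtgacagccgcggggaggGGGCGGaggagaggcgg
Kcnd2: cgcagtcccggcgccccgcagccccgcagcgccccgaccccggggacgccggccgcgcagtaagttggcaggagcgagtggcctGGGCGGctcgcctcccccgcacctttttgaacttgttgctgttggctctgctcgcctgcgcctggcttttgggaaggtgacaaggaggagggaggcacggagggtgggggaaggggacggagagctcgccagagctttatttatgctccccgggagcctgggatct
Kcne4: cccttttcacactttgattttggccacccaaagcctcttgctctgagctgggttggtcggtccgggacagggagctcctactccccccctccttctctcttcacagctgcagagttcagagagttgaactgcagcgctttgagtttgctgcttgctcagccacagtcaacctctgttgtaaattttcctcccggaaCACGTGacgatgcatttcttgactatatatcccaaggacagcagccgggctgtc
Kcnip2 has 2 GC boxes, Kcnd2 has 1, Kcne4 has 1 E-box and Kcnj3 has none of the 4 motifs. A single RefSeq start was given for 10 of the 15 members lower in both genotypes. Of these, 6 hold GGGCGG, none holds TATAAA, 1 holds CATTCC and 1 holds CACGTG, with a median of 13 CpG. Of the 7 members higher in both genotypes, 4 had a single start: 1 holds GGGCGG, none TATAAA, 1 CATTCC and 2 CACGTG. Their median was 6.5 CpG. Over 22862 genes with a single start, 32.4% hold GGGCGG, 13.6% TATAAA, 12.6% CATTCC and 5.92% CACGTG, with a median of 5 CpG. These 22862 were not restricted to genes that passed the filter. GGAAA, the core bound by NFAT, was searched too and is not in capitals: 4 of the 10 lower members hold it, against 55.4% of all. None of the 5 motifs contains another, and a match is a description of the letters.

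Of the Kv1 pores, Kcna7 fell and Kcna5 was not called on the mean of the 4 weeks. Kcna5, which encodes Kv1.5, had medians of 6.504 FPKM in WTSH, 7.22 in WTTAC, 6.58 in KOSH and 7.55 in KOTAC, with differences of 0.15 (SE 0.13) and 0.17 (SE 0.13) that were not called. Its TAC hearts spread more widely, from 3.75 to 17.5 in WTTAC against 4.05 to 10.03 in WTSH. Over both genotypes, Kcna5 changed by -0.36, 0.53, 0.08 and 0.37 at weeks 1, 2, 4 and 8. Only week 2 was called (adjusted p = 0.00863 by limma), and not without the 4 week 2 libraries (0.30, adjusted p = 0.264). The fall at week 1 was short of the threshold (adjusted p = 0.0718). It was called under median-of-ratios scaling (-0.62, adjusted p = 0.00347) and quantile normalization (-0.68, adjusted p = 0.00144). Array weights (adjusted p = 0.0179) and the replicate number as a block (adjusted p = 0.0236) called it too. Without the 8 libraries of high atrial sum it was not called (-0.26, adjusted p = 0.359). Kcna7, the Kv1.7 pore, fell in both genotypes, by 0.45 (SE 0.07) and by 0.43 (SE 0.07). Its WTSH hearts ran from 2.05 to 3.53 FPKM around a median of 3.02, and its WTTAC hearts from 0.864 to 2.80 around 2.10.

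Accessory and silent subunits of these pores went different ways. Kcnv2, a silent subunit that joins Kv2 pores, was 1.04, 1.69 and 2.60 FPKM in WTSH, 0.0740, 0.368 and 1.59 in WTTAC, 0.827, 1.47 and 2.11 in KOSH, and 0.116, 0.197 and 0.467 in KOTAC. No KOTAC heart overlapped a KOSH heart, and 14 of 16 WTTAC hearts were below every WTSH heart. It fell by 0.89 (SE 0.08, adjusted p = 4.54e-13) and by 0.99 (SE 0.08, adjusted p = 7.81e-15). Kcng2, the far more abundant silent subunit, was not called on the deposited scaling: medians were 44.8 in WTSH, 51.3 in WTTAC, 49.4 in KOSH and 45.8 in KOTAC. In KOTAC vs. KOSH it was called lower under median-of-ratios scaling (-0.18, adjusted p = 0.00792 by limma) and quantile normalization (-0.17, adjusted p = 0.0107). In WTTAC vs. WTSH it was called under neither. The redox-sensitive Kvβ subunit Kcnab2 was called higher in KOTAC vs. KOSH (0.26, SE 0.08), a call lost under quantile normalization, and the WT difference was 0.14 (SE 0.08). Its exons overlap those of Gm16334. Kcnab1 had differences of 0.17 (SE 0.08) and 0.11 (SE 0.08) that were not called.

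Of the channels of late repolarization, Kcnh2 fell and Kcnq1 was not called on the mean of the 4 weeks with the deposited scaling. Kcnh2 was 20.8, 24.6 and 28.6 FPKM in WTSH, 12.2, 15.5 and 26.5 in WTTAC, 17.7, 20.9 and 24.7 in KOSH, and 7.86, 13.7 and 23.2 in KOTAC. In each genotype 14 of 16 TAC hearts were below every sham heart. It fell by 0.52 (SE 0.08, adjusted p = 1.99e-07) and by 0.62 (SE 0.08, adjusted p = 3.94e-09). Kcnq1, the pore of the slow delayed rectifier, differed by -0.07 (SE 0.11) and -0.15 (SE 0.11). Quantile normalization called it lower in WTTAC (-0.23, adjusted p = 0.045 by limma) and KOTAC (-0.32, adjusted p = 0.00478). Median-of-ratios scaling called Kcnq1 lower in KOTAC (-0.32, adjusted p = 0.00721) and not in WTTAC (-0.23, adjusted p = 0.0503). At week 2 Kcnq1 was called lower (-0.48, adjusted p = 0.00461), but not without the 4 week 2 libraries (-0.03, adjusted p = 0.874). Its partner Kcne1 rose in WTTAC by 0.45 (SE 0.15, adjusted p = 0.00698) and differed by 0.01 (SE 0.15) in KOTAC. The difference between those effects was -0.44 (SE 0.21), with an unadjusted p of 0.0399 and an adjusted p of 1.00 by limma. Kcne1 had medians of 4.03 FPKM in WTSH, 5.74 in WTTAC, 6.40 in KOSH and 5.63 in KOTAC, and its WT call was lost under both other scalings.

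Kcne4, an accessory subunit that silences Kv7.1 in transfected cells, rose in both genotypes. It was 0.678, 1.02 and 1.83 FPKM in WTSH, 0.852, 2.00 and 5.75 in WTTAC, 0.540, 0.967 and 1.56 in KOSH, and 1.18, 2.56 and 3.83 in KOTAC. Above every sham heart of their genotype were 9 WTTAC and 12 KOTAC hearts. The rise was 0.81 (SE 0.13, adjusted p = 3.42e-07) and 0.82 (SE 0.13, adjusted p = 2.57e-07).

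The Kir2 pores that hold the resting potential split by gene. Kcnj2, which encodes Kir2.1, was 6.77, 8.89 and 10.9 FPKM in WTSH, 3.34, 5.84 and 8.43 in WTTAC, 4.93, 7.60 and 9.64 in KOSH, and 2.66, 4.96 and 6.62 in KOTAC. Every TAC heart was below its sham median, and it fell by 0.51 (SE 0.09) and by 0.63 (SE 0.09). Kcnj12, which encodes Kir2.2, fell by 0.39 (SE 0.12) and by 0.48 (SE 0.12), with weaker falls of 0.22 and 0.27 without the 4 week 2 libraries.

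Kcnj14, which encodes Kir2.4, rose by 0.86 (SE 0.33, adjusted p = 0.0218) and by 1.01 (SE 0.33, adjusted p = 0.00661). It was 0.341, 14.9 and 20.9 FPKM in WTSH, 0.572, 26.1 and 41.9 in WTTAC, 6.29, 13.9 and 20.8 in KOSH, and 14.3, 28.9 and 43.0 in KOTAC. The SE was the largest of the family, and 3 WTSH and 2 WTTAC hearts had values from 0.341 to 1.17 FPKM, while each KO heart had at least 6.29. In each genotype 11 of 16 TAC hearts were above every sham heart. The WT call was lost under both other scalings, on leaving out any of 4 hearts, and without the 8 libraries of high atrial sum (0.77, adjusted p = 0.0972). Kcnj15, the Kir4.2 pore, rose by 0.67 (SE 0.13) and by 0.54 (SE 0.13), from medians of 0.215 and 0.320 FPKM in sham to 0.672 and 0.825 in TAC hearts.

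Both tested Kir3 genes fell. The other pair, Kcnj6 and Kcnj9, stayed below the filter, the highest heart at 0.0943 FPKM. On the log2(FPKM + 1) scale the fall of Kcnj3 was the largest of the 32 members in each genotype. As a ratio of mean FPKM, sham to TAC, Kcnv2 fell further (3.30 in WT and 6.22 in KO hearts) than Kcnj3 (2.15 and 2.82). Kcnj3, which encodes GIRK1, was 14.6, 18.7 and 23.1 FPKM in WTSH, 4.39, 8.14 and 17.6 in WTTAC, 10.2, 15.4 and 23.0 in KOSH, and 2.02, 5.39 and 9.67 in KOTAC. The KOTAC and KOSH hearts did not overlap, and 15 of 16 WTTAC hearts were below every WTSH heart. It fell by 1.10 (SE 0.13, adjusted p = 4.62e-10) and by 1.40 (SE 0.13, adjusted p = 3.64e-13). Kcnj5, which encodes its partner GIRK4, was 13.8, 16.3 and 19.4 FPKM in WTSH, 3.86, 10.7 and 16.5 in WTTAC, 12.6, 14.9 and 20.6 in KOSH, and 2.39, 7.48 and 12.4 in KOTAC. The overlap was the same: none in the KO hearts and 1 heart in the WT. It fell by 0.70 (SE 0.10, adjusted p = 8.19e-08) and by 0.97 (SE 0.10, adjusted p = 1.56e-11).

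The Kir3 channel is best known from atrial muscle, and the sum of 6 atrial markers ran from 16.9 to 498 FPKM in WTSH, 13.6 to 817.2 in KOSH, 13.5 to 253.2 in WTTAC and 12.9 to 62.2 in KOTAC hearts. Of 5 tested atrial markers, 1 rose and 1 fell in WTTAC, and 1 rose and 2 fell in KOTAC, among the latter the atrial light chain Myl7 (-1.46, SE 0.66, adjusted p = 0.0489). Without the 8 libraries above 100, Kcnj3 had changes of -1.07 and -1.34 and Kcnj5 of -0.71 and -0.93, all of them called. Exons of Kcnj3 overlap a long noncoding RNA gene on the other strand, Gm17595, and reads of the 2 cannot be told apart without strand.

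Upstream of Kir3, genes moved in both directions. For each list here, the shares of all genes tested were 48.2% called higher and 11.7% lower in WTTAC, and 48.0% and 14.0% in KOTAC. Of 11 genes of the muscarinic and adenosine arm, 6 rose and 2 fell in each genotype, with median log2 changes of 0.363 and 0.388. Its counts are thus near those shares. The 2 genes of this arm that fell were the muscarinic receptor Chrm2 (-0.49 in WTTAC, SE 0.14, and -0.45 in KOTAC, SE 0.14) and the regulator Rgs6 (-0.28 and -0.36, SE 0.10 each). The G protein subunit Gnao1 rose by 0.93 and by 0.90 (SE 0.14 each). Of 15 tested genes of other cation channels, pumps and exchangers, 7 fell in WTTAC, 8 in KOTAC and none rose. Among them were Scn4b, a sodium channel β subunit (-1.31 and -1.36, SE 0.22 each), and the calcium channel pore Cacna1c (-0.25 and -0.25, SE 0.10 each). Of 6 tested partner proteins, 3 rose in each genotype, among them caveolin Cav3 (0.36 and 0.39, SE 0.07 each), and the scaffold Dlg1 fell in KOTAC (-0.17, SE 0.08). Of 8 transcription factors of cardiac channel genes, 2 rose in WTTAC and 1 in KOTAC, while Tbx5 fell in both (-0.37 and -0.57, SE 0.08 each). These other genes were tested on the deposited scaling alone.

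Only 3 KATP genes were among the members, Abcc8, Abcc9 and Kcnj8, and the pore gene Kcnj11 had no row. Of these 3, the receptors alone were called lower. Abcc9 was 40.6, 54.9 and 66.1 FPKM in WTSH, 21.6, 30.1 and 49.97 in WTTAC, 40.7, 49.6 and 63.4 in KOSH, and 14.7, 26.5 and 37.7 in KOTAC. The KOTAC and KOSH hearts did not overlap, and 14 of 16 WTTAC hearts were below every WTSH heart. It fell by 0.76 (SE 0.10, adjusted p = 8.64e-09) and by 0.92 (SE 0.10, adjusted p = 4.30e-11). Abcc8, which encodes SUR1, fell by 0.29 (SE 0.06) and by 0.24 (SE 0.06), from medians of 6.39 and 6.15 FPKM to 5.01 and 5.44. The KO fall was 0.15 without the 4 week 2 libraries. Kcnj8, which encodes the Kir6.1 pore, was not called, with differences of 0.09 (SE 0.07) and 0.03 (SE 0.07) that turned to -0.07 and -0.13 under median-of-ratios scaling.

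The ratio of Abcc9 to Kcnj8 FPKM within a heart needs no scaling between libraries, but it keeps a bias by gene length. It is given with the 4 week 2 libraries that stood apart, not without them. Its medians were 3.48 in WTSH, 2.03 in WTTAC, 3.55 in KOSH and 1.86 in KOTAC, and 6 of 16 WTTAC and 13 of 16 KOTAC hearts were below every sham heart of their genotype.

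Two-pore leak channels changed in opposite directions. Kcnk3 fell by 0.21 (SE 0.08, adjusted p = 0.0145) and by 0.38 (SE 0.08, adjusted p = 2.54e-05), from medians of 68.0 and 68.5 FPKM to 58.9 and 51.7. Without the 8 libraries of high atrial sum the WT call was lost (-0.20, adjusted p = 0.0624). Kcnk2, which encodes the stretch-sensitive channel TREK1, was 0.422, 0.674 and 1.02 FPKM in WTSH, 0.550, 1.08 and 4.19 in WTTAC, 0.440, 0.638 and 0.911 in KOSH, and 0.573, 1.32 and 2.79 in KOTAC. Above every sham heart of their genotype were 8 WTTAC and 13 KOTAC hearts. It rose by 0.45 (SE 0.08, adjusted p = 1.99e-06) and by 0.51 (SE 0.08, adjusted p = 9.32e-08). Kcnk6, which encodes TWIK2, rose by 0.33 (SE 0.05) and by 0.31 (SE 0.05), with 15 of 16 TAC hearts of each genotype above every sham heart.

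Of the calcium-activated channels, the small-conductance pore Kcnn2 fell under every setting of the TAC comparisons. Kcnn2, which encodes SK2, fell by 0.50 (SE 0.08) and by 0.66 (SE 0.08), from medians of 5.30 and 5.39 FPKM to 3.48 and 3.08. Kcnn1, which encodes SK1, fell by 0.15 (SE 0.06, adjusted p = 0.0254) and by 0.17 (SE 0.06, adjusted p = 0.0103), and neither call held without the 4 week 2 libraries, where the changes were -0.10 and -0.10. The WT call was also lost without the 8 libraries of high atrial sum. Kcnn3, the SK3 pore, was below the filter, with medians of 0.138 FPKM in WTSH, 0.220 in WTTAC, 0.0989 in KOSH and 0.192 in KOTAC. Kcnn4, the intermediate-conductance channel known from blood, immune and smooth muscle cells, rose by 0.30 (SE 0.06) and by 0.19 (SE 0.06), and neither call held under quantile normalization. It stayed low, with medians of 0.175 FPKM in WTSH and 0.298 in WTTAC. The sodium-activated Kcnt2 rose by 0.31 (SE 0.05) and by 0.38 (SE 0.05).

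Markers of other cells moved with TAC as well, and their part in these results was not tested. All 8 fibroblast markers rose in both genotypes, and their sum ran from 238.9 to 439 FPKM in WTSH, 365.2 to 3768 in WTTAC, 227.8 to 406.9 in KOSH and 632.6 to 2857 in KOTAC. In each genotype 7 of 8 endothelial and 7 of 8 macrophage markers rose, as did 6 and 7 of 8 smooth muscle and pericyte markers. Of all genes tested, 48.2% were called higher and 11.7% lower in WTTAC, and 48.0% and 14.0% in KOTAC. Of 2 tested lymphocyte markers 1 rose in WTTAC and none in KOTAC, and of 2 tested nerve and glia markers 1 rose in WTTAC and 1 fell in KOTAC. The macrophage sum ran from 79.13 to 180.8 FPKM in WTSH, 88.3 to 540.7 in WTTAC, 78.23 to 131 in KOSH and 109.3 to 366.5 in KOTAC. Of 10 ventricular muscle markers, 2 rose and 3 fell in WTTAC, and 2 rose and 4 fell in KOTAC. Their summed medians were 41850 FPKM in WTSH, 38590 in WTTAC, 40520 in KOSH and 36390 in KOTAC. The sum over all 95 members had medians of 425.4 FPKM in WTSH, 351.6 in WTTAC, 411.8 in KOSH and 329.5 in KOTAC, with overlapping ranges. No marker of these lists was at 0 in every heart.

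**Figure D3:**
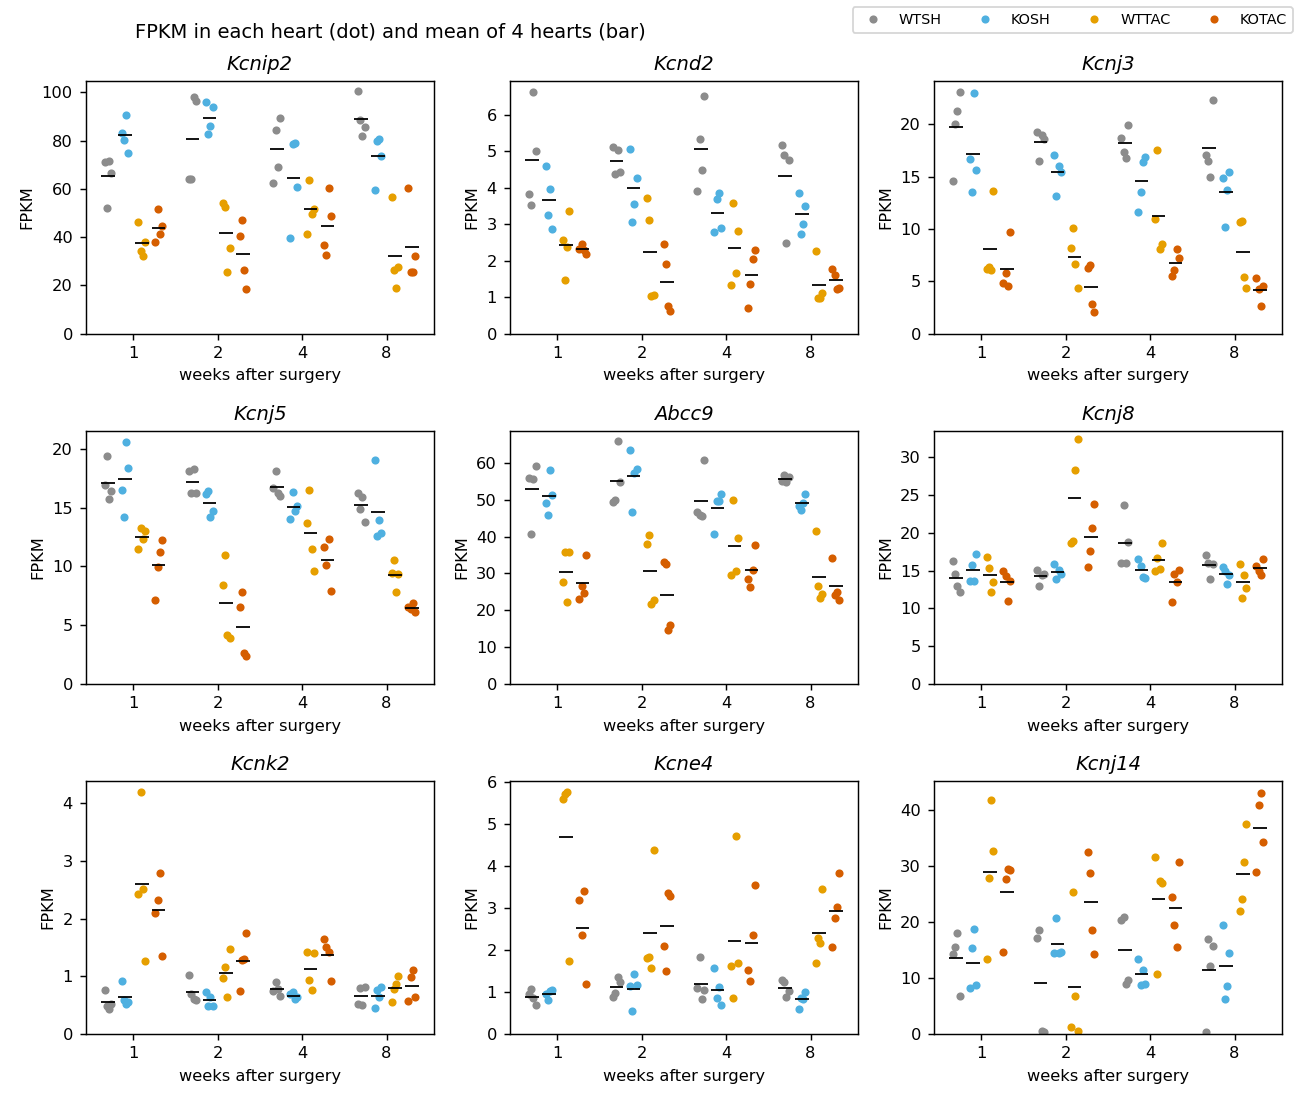
FPKM of 9 members in each heart (dots) by week and condition, with the mean of 4 hearts as a bar, on linear axes from 0. Kcnip2, Kcnd2, Kcnj3, Kcnj5 and Abcc9 are lower in TAC hearts, Kcnj8 TAC hearts are high at week 2, Kcnk2 TAC hearts at week 1, Kcne4 means are higher in TAC hearts, and Kcnj14 has 5 hearts near 0.

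The next question was whether deletion of Ndufs4 changed the family. In sham hearts no member was called: limma gave 0 of 32 in KOSH vs. WTSH, against 0.0513% of all genes (0.0293% higher and 0.0220% lower), and 5 members had an unadjusted p under 0.05. Those 5 were Kcne1 (0.46, SE 0.15, adjusted p = 0.633), Kcnd2 (-0.32, SE 0.12, adjusted p = 0.934), Kcnh2 (-0.21, SE 0.08), Kcnj3 (-0.28, SE 0.13) and Kcnv2 (-0.18, SE 0.08). The 95% confidence interval for Kcnd2, -0.56 to -0.08, is unadjusted, and 15 of 16 KOSH hearts were below the WTSH median. With array weights, which weight each library in the limma fit, Kcnd2 was called lower (-0.32, adjusted p = 0.045).

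Under TAC, 1 of 32 members was called in KOTAC vs. WTTAC (3.12%), against 0.820% of all genes (0.110% higher and 0.710% lower), and 8 had an unadjusted p under 0.05. It was Kcnj3, lower in KOTAC (-0.58, SE 0.13, adjusted p = 0.0132), with medians of 5.39 FPKM in KOTAC and 8.14 in WTTAC. Next in order of p were Kcnh2 (-0.30, SE 0.08, adjusted p = 0.0504) and Kcnj5 (-0.36, SE 0.10, adjusted p = 0.0658), both short of the threshold. Kcnj3 was not called without week 2 (adjusted p = 0.17) or when the sham hearts were left out of the fit (adjusted p = 0.213). Without the 4 week 2 libraries Kcnj3 (adjusted p = 0.0496) and Kcnj5 (adjusted p = 0.0218) were called. The interaction of genotype and TAC, which asks whether the TAC effect differed between genotypes, called 0 of 32 members and 0% of all genes with limma, and 1 member had an unadjusted p under 0.05. The fall of Kcnj3 was -0.30 further in KO than in WT hearts (SE 0.18), with a 95% confidence interval that includes 0. The falls in the 2 genotypes are therefore not shown to differ.

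The last question was how the TAC effect ran over the 8 weeks, taking both genotypes together at each week. At week 1, 20 members were called (8 higher, 12 lower), against 62.4% of all genes (54.5% higher and 7.92% lower). At week 2 there were 26 (8 higher, 18 lower), against 60.4% (39.7% and 20.7%). At week 4 there were 14 (4 higher, 10 lower), against 15.9% (11.2% and 4.75%), and at week 8 there were 16 (6 higher, 10 lower), against 43.8% (34.2% and 9.59%). Without the 4 libraries that stood apart, week 2 had 14 calls (2 higher, 12 lower), all among the 26. Leaving them out also lowered the week 2 share of all genes called in each genotype, as given below. Week 4 had 9 calls without the 8 libraries of high atrial sum, 7 without WTTAC replicate 3 of that week and 9 without KOSH replicate 2. For these fits the share of all genes is not given. In WT hearts alone the calls numbered 15, 19, 0 and 12 at the 4 weeks, against 56.0%, 46.4%, 0.212% and 16.4% of all genes. In KO hearts alone they numbered 18, 22, 7 and 15, against 36.9%, 42.4%, 10.4% and 40.2%. Without the 4 libraries they numbered 16, 8, 2 and 15 in WT hearts, against 63.4%, 24.1%, 1.68% and 23.8% of all genes. In KO hearts they then numbered 21, 10, 10 and 17, against 46%, 20.1%, 18.5% and 49.3%.

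Kcnj3, Kcnd2, Kcnip2, Kcnv2, Abcc9, Kcnj5, Kcnj2, Kcnh2 and Kcnn2 were called lower at every week. Kcnj3 had changes of -1.31, -1.48, -0.86 and -1.33 at weeks 1, 2, 4 and 8 (SE 0.18 each), and Kcnip2 of -0.84, -1.23, -0.54 and -1.32 (SE 0.18 each). Kcne4, Kcnk6 and Kcnt2 were called higher at every week. Kcnj3, Kcnd2 and Kcnv2 kept their call at all 4 weeks under each alternative that tested them, and the other 9 each lost a week under at least 1 of them.

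Without the 4 week 2 libraries, Kcnj2, Kcne4 and Kcnt2 were not called at week 2, with changes of -0.21, 0.44 and 0.18 and adjusted p values of 0.195, 0.0859 and 0.0555 by limma. Without the 8 libraries of high atrial sum, Kcnip2, Abcc9, Kcnj5 and Kcne4 were not called at week 4, with adjusted p values of 0.121, 0.0549, 0.0738 and 0.112, nor Kcnh2 and Kcnn2 at week 1 (0.0613 and 0.0576). Week 4 also turned on single hearts: leaving out 1 heart at a time ended the call of Kcne4 for 9 hearts, of Kcnip2 and Kcnk6 for 8 each, of Kcnj5 and Kcnn2 for 5 each and of Kcnh2 for WTTAC replicate 3. The rises depended on the scaling too. Under quantile normalization Kcnk6 was called at week 2 alone, Kcnt2 was not called at weeks 1 and 2 and Kcne4 was not called at week 4, and under median-of-ratios scaling Kcnk6 was not called at week 4 (adjusted p = 0.0585).

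The week of the largest effect rested on the 4 libraries as well. Of the 22 members called in both genotypes, 13 had their largest mean TAC effect at week 2 with these libraries and 5 without them, when 10 had it at week 8. The smallest effect fell at week 4 for 14 members and at week 2 for 3, and for 11 and 9 without the 4 libraries.

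A test over the 4 weeks for a TAC effect that changed with time called 15 of 32 members (46.9%), against 50.8% of all genes. Without the 4 week 2 libraries it called 8, all among the 15, and the share of all genes is not given. With all libraries the 5 smallest adjusted p values belonged to Kcnk2 (5.25e-05), Kcnj8 (0.000167), Kcnj5 (0.000395), Kcnj12 (0.00192) and Kcng2 (0.00422). Without the 8 libraries of high atrial sum, 4 of the 15 were not called: Kcna5 (0.109), Kcnab2 (0.185), Kcnip2 (0.0545) and Kcnn4 (0.0977).

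Kcnk2 rose early. At week 1 it was 0.763, 0.476, 0.422 and 0.524 FPKM in the 4 WTSH hearts, 2.42, 4.19, 2.51 and 1.27 in WTTAC, 0.911, 0.585, 0.523 and 0.551 in KOSH, and 2.10, 2.32, 2.79 and 1.34 in KOTAC. No TAC heart overlapped a sham heart. The change was 1.04 (SE 0.11, adjusted p = 1.3e-11) at week 1, 0.38 at week 2, 0.38 at week 4 and 0.12 (SE 0.11) at week 8, where it was not called. Week 2 was not called without the 4 libraries (0.30, adjusted p = 0.0524). Its test over time gave an adjusted p of 3.62e-05 without the 4 libraries and 0.00917 without the 8 libraries of high atrial sum. Markers of other cells were also high at week 1. The median log2 change of 8 fibroblast markers was 2.84, 1.74, 1.07 and 1.36 at weeks 1, 2, 4 and 8, and that of 8 macrophage markers was 1.56, 0.919, 0.353 and 0.301. Their part in the rise of Kcnk2 was not tested.

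Kcnj8 was called higher at week 2 and at no other week. At week 2 it ran from 13.0 to 15.03 FPKM in WTSH, 18.7 to 32.4 in WTTAC, 13.9 to 15.8 in KOSH and 15.5 to 23.8 in KOTAC. The change was 0.53 (SE 0.09, adjusted p = 4.58e-06), and 0.26 (adjusted p = 0.023) without the 4 libraries. At the other weeks the changes were -0.05, -0.16 and -0.06 (SE 0.09 each), none of them called. Median-of-ratios scaling turned week 1 into a called fall (-0.35, adjusted p = 0.00119) and left week 2 a rise (0.39, adjusted p = 0.000296). Vascular markers were high at week 2 as well, and their part in the rise of Kcnj8 was not tested. Of all genes, 54.5% were called higher at week 1 and 39.7% at week 2. All 8 endothelial markers were called higher at that week, with a median log2 change of 0.849 against 0.202, 0.0871 and 0.202 at weeks 1, 4 and 8. Without the 4 libraries 7 of the 8 were called, with a median of 0.517. Of 8 smooth muscle and pericyte markers 7 were called higher at week 2, with a median of 0.683 (5 and 0.638 without the 4 libraries), and 6 at week 1, with a median of 0.768.

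Kcnj12 shows how far the 4 libraries reach. At week 2 Kcnj12 had 6.04, 8.42, 2.11 and 2.06 FPKM in WTTAC replicates 1 to 4, and 8.80, 7.14, 1.93 and 1.65 in KOTAC replicates 1 to 4. Its change of -1.16 (SE 0.18) at that week was -0.39 without replicates 3 and 4, and its test over time then gave an adjusted p of 0.376. Kcnj5 kept its fall at week 2, with -1.47 (SE 0.14) and -0.89 without them, and a test over time of 0.0151.

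On the deposited scaling Kcng2 was called higher at week 8, by 0.41 (SE 0.09, adjusted p = 0.000269), and was called at no other week. At that week it ran from 38.6 to 44.0 FPKM in WTSH, 38.7 to 69.1 in WTTAC, 40.1 to 54.0 in KOSH and 45.6 to 75.5 in KOTAC, so the groups overlapped. At weeks 1, 2 and 4 its changes lay between -0.03 and -0.07 (SE 0.09 each). Median-of-ratios scaling called Kcng2 lower at week 1 (-0.34, adjusted p = 0.000729 by limma) and at week 2 (-0.21, adjusted p = 0.0279). Quantile normalization did so too (-0.30, adjusted p = 0.00217, and -0.20, adjusted p = 0.0329). The rise at week 8 was smaller but called under both scalings (0.25 each). It was not called with the replicate number as a block (0.29, adjusted p = 0.0705).

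**Figure D4:**
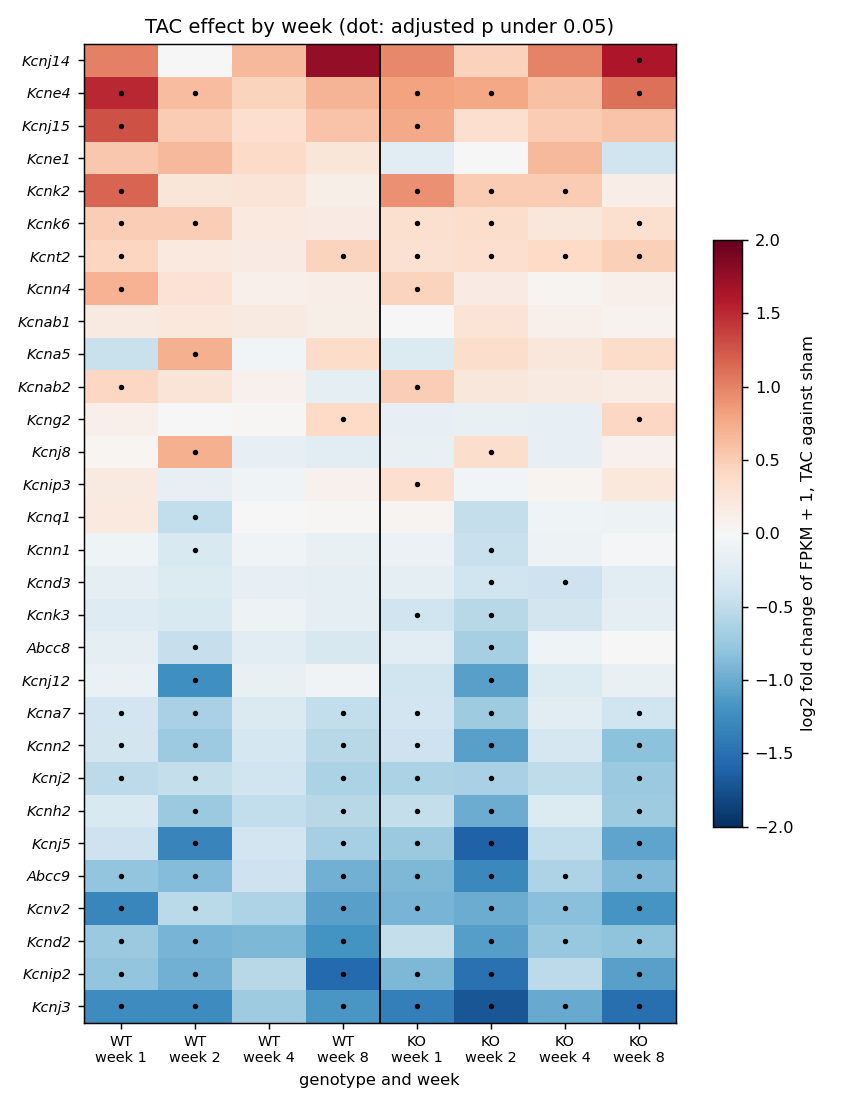
Log2 fold change of FPKM + 1, TAC against sham, of 30 members (rows, ordered by the WT effect) at weeks 1, 2, 4 and 8 in WT (left) and KO hearts (right). Red is higher and blue lower in TAC, and a dot marks an adjusted p under 0.05. The WT column of week 4 has no dot, against 7 dots in the KO column; the difference between those columns was not tested.

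Over the weeks in sham hearts, 1 member was called, Kcnip3 (adjusted p = 0.0461, 3.12% of members against 1.22% of all genes), higher at week 2 than at week 1 by 0.30. It was not called without the 8 libraries of high atrial sum, where the adjusted p was 0.108, nor on leaving out any of 31 of the 64 hearts in turn. Further adjusted p values were 0.153 for Kcne1 and 0.253 for Kcng2.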

How the data were processed

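RNA of cardiac tissue from 64 mouse hearts was sequenced, 1 library per heart, in 16 groups of 4 taken from the labels. Paired-end reads were aligned by the authors to mm9 using TopHat, and reads with more than 1 location or more than 1 mismatch were dropped. The deposited FPKM values were estimated with Cufflinks on Ensembl gene models, then summed over each gene's transcripts. FastQC is named too, without a version for any tool. Nothing says whether counting used strand. FPKM is not a count, so depth is unknown and the only error known is how hearts of a group vary, each heart being 1 replicate.

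Members were the rows whose symbol starts with Kcn, plus Abcc8 and Abcc9. Members and gene lists were chosen with earlier results of these data known. Tests used log2(FPKM + 1) of the 13653 of 30285 genes that reached 1 FPKM in 4 or more libraries. One limma model with trend (limma 3.58.1, R 4.3.3) had 16 group means and no covariate, and p-values were adjusted by Benjamini-Hochberg over all genes, with a threshold of 0.05. The study itself tested read counts, which were not used here. For a comparison of conditions, the 4 weekly differences were averaged. Overlaps, ratios, promoter motifs and figures used Python 3.11.15 with pandas 2.3.3, numpy 2.4.6 and matplotlib 3.10.9. The model was tested on simulated data.

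Genes named by rule were the main cardiac subunits, the 10 largest called rises and falls of each TAC comparison, every member called between genotypes, the 5 smallest p in each test over weeks and the 5 highest levels. From the other lists the called genes with the 2 largest and 2 smallest changes were open to naming. Some of the genes that the rule names are not reported here, and 30 of the 32 tested members are drawn. Markers covered ventricular and atrial muscle, fibroblasts, endothelium, smooth muscle and pericytes, macrophages, lymphocytes, and nerve and glia.

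Tried as alternatives were each heart left out, the 4 length-biased libraries or all of week 2 left out, the replicate number as a block, fits on the compared hearts alone, array weights, no trend, quantile or median-of-ratios scaling, a minimum of 5 FPKM or none, and a pseudocount of 0.1. Leaving out the 8 libraries of high atrial sum was chosen after seeing the data. Gene lengths and overlaps were read from the GENCODE annotation of mm9, and promoters from RefSeq on GRCm38.p6.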

Additional observations from a re-analysis of the deposited data

Results flagged for a closer look

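In 11 of 160 groups of 4 hearts examined for 10 members, 1 heart stood far from the other 3, and chance sets about 1 in 20 groups apart. High hearts were at 13.6 FPKM for Kcnj3 in WTTAC at week 1, 2.26 for Kcnd2 in WTTAC at week 8, 60.8 for Abcc9 in WTSH at week 4, 2.56 for Kcnv2 in WTSH at week 1, 0.467 for Kcnv2 in KOTAC at week 1, 0.911 for Kcnk2 in KOSH at week 1, 4.39 for Kcne4 in WTTAC at week 2 and 20.8 for Kcnj14 in KOSH at week 2. Low hearts were at 2.49 FPKM for Kcnd2 in WTSH at week 8, 1.73 for Kcne4 in WTTAC at week 1 and 14.7 for Kcnj14 in KOTAC at week 1.

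For 15 members the TAC effect differed between weeks by limma, and 14 of them are given here. The adjusted p was 0.00422 for Kcng2, 0.0268 for Kcnip2, 0.00424 for Kcnip3, 0.000395 for Kcnj5, 0.000167 for Kcnj8, 5.25e-05 for Kcnk2, 0.00522 for Kcnn4 and 0.0339 for Kcnv2, and these 8 were also called without the 4 week 2 libraries that stood apart. It was 0.0097 for Abcc8, 0.0147 for Kcna5, 0.0463 for Kcnab2, 0.0274 for Kcnh2, 0.00192 for Kcnj12 and 0.00776 for Kcnn2, which were not called without them.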

How the results depend on the processing

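The 2 TAC comparisons called 23 and 25 members, and 22 to 25 and 24 to 25 with a heart left out. With no filter, where 91 members were tested, they called 43 and 41, against 38.9% and 39.8% of all genes. With a filter at an FPKM of 5, where 18 were tested, they called 13 and 12. For the other alternative fits of this section the share of all genes is not given here, and it may have moved with the counts. The other weekly counts moved with the filter as well: week 1 had 39 calls with none and 10 at an FPKM of 5, and weeks 2, 4 and 8 had 15, 8 and 10 at an FPKM of 5. Without the 4 week 2 libraries, week 2 had 14 calls and the TAC effect by week 8. The latter had 23 with no filter. Without the 8 libraries of high atrial sum, week 4 had 9. KOSH vs. WTSH called 1 member, Kcnd2, with array weights and 1 member on the compared hearts alone. KOTAC vs. WTTAC called 3 at a pseudocount of 0.1, 3 with array weights, 2 at an FPKM of 5, 2 without the 4 libraries, 0 without week 2 and 0 on the compared hearts alone. Sham hearts by week called 2 with no filter, 2 on the compared hearts alone, 4 with array weights, and 0 at an FPKM of 5, with quantile normalization or without the 8 libraries. With each heart left out, the counts ran from 0 to 0 in KOSH vs. WTSH, 1 to 4 in KOTAC vs. WTTAC, 0 to 0 in the interaction, 19 to 22, 25 to 28, 7 to 15 and 16 to 17 at weeks 1, 2, 4 and 8, 12 to 19 for the TAC effect by week and 0 to 1 for sham hearts by week. Comparisons of conditions share hearts, except the 2 TAC comparisons with each other. The causes were not tested.

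Among single members, Kcnip3 turned to -0.005209 in KOTAC vs. KOSH and -0.01585 at week 1 with quantile normalization. No call of a named member reversed when a heart was left out.

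Whether the replicate number marked pairs was not decided. Of same-numbered pairs of a week, 24 of 77 had a correlation of their deviations over 0.1 (median 0.0148). Of other-numbered pairs of a week, 76 of 307 did (median -0.0048), and the ranges overlapped. The same-numbered heart correlated best in 48 of 154 cases, a share not tested against chance. The length-biased libraries of week 2 had the same replicate numbers in WTTAC and KOTAC. With the replicate number as a block, KOTAC vs. WTTAC called 5 members and week 8 called 10, and the other counts stayed within 1.5 times. The block could not be fitted for sham hearts by week, where it lies within the week. For the interaction and the TAC effect by week, all hearts were already in the fit. FPKM carries no depth, so counting error is unknown, and members under 1 FPKM are limited most.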
